A study of Morone chrysops x Morone saxatilis with 6 samples.

Results

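Of 38047 coding sequences measured in the liver of hybrid striped bass, 142 met a rule that sets every pool of large fish above every pool of small fish by a fixed margin. In 23 of them a large pool was itself at 0, as described further on. They were chosen by the measured values themselves. CPM (the count per 1000000 counts of a library) had to be at least 1.5 times as high in the lowest large pool as in the highest small pool. The mean over the large pools had to be 1 CPM or more, and the 100 coding sequences of highest mean CPM were left out. The limit of 300 members was not reached. The difference between large and small fish is therefore how these sequences were found and is given as a description.

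The fish were crosses of domesticated white bass (Morone chrysops) and striped bass (Morone saxatilis), drawn from 44 families and grown together in ponds for 115 days. At harvest, liver was taken from the largest and from the smallest animals, and RNA of several fish was mixed in equal amounts into each of 3 large and 3 small pools. Each group is thus an extreme of size in 1 population, without a group of intermediate size, and a pool gives no value for a single fish. The sources used here do not give the number of fish per pool, their sex or their age. The titles call every pool a biological replicate, but the labels do not say how fish were assigned to pools. The spread between pools may therefore be partly technical.

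The liver is the main source of circulating insulin-like growth factor 1, which it releases in response to growth hormone and which drives growth of muscle and skeleton in fish. It also handles dietary fat, sugar and amino acids, makes most plasma proteins and, in maturing females, makes the yolk precursor vitellogenin. Comparing livers at the ends of a size distribution asks which of its transcripts go with growth. The table names coding sequences only by running number (HSB_liver_CDS followed by a number). It does not pair them with genes, so no function is given for any member and the label of the tissue could not be checked against liver markers.

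Total counts were 5327580, 4783800 and 19625891 in large pools 1 to 3 and 8892682, 2434421 and 3491954 in small pools 1 to 3. A single count was worth 0.051 CPM in large pool 3 and 0.411 CPM in small pool 2. Where no count was seen, up to 3 could have been missed, equal to 0.153 CPM in large pool 3 and 1.23 CPM in small pool 2. The CPM are not divided by sequence length, so a coding sequence with few counts may be scarce or short, and CPM are used here only as counts. Fewer cells of a type and less RNA per cell cannot be told apart in such pools.

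Most members drew few counts. Their mean over the large pools had a median of 1.95 CPM (range 1.0 to 193), where the median was 6.40 CPM over the 21355 coding sequences that passed the same limits on level. Over the small pools the median was 0.21 CPM. Together the members took 926, 1175 and 543 CPM in large pools 1 to 3 and 161, 157 and 183 CPM in small pools 1 to 3. In large pool 2, 57.2% of the sum came from the pair of members with the most counts, and without that pair the sums were 797, 503 and 423 CPM in the large and 124, 106 and 114 CPM in the small pools. The members fell into 3 sets by what the small pools held: 41 had counts in all small pools, 58 had counts in some of them, and 43 had 0 counts in all of them.

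**Figure D1:**
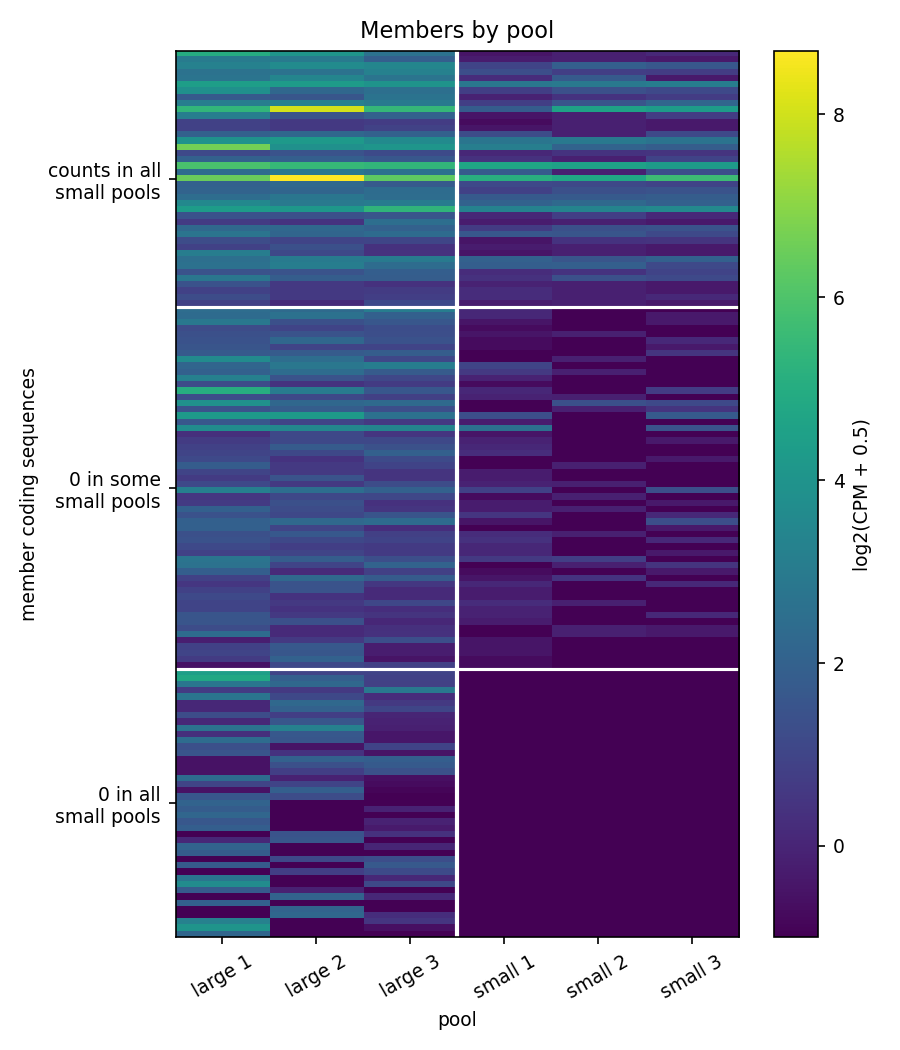
Each row is 1 of the 142 members and each column a pool, coloured by log2(CPM + 0.5). White lines part the groups of fish and the 3 sets of members, which are ordered by the width of the gap between groups. The 41 members with counts in all small pools include the brightest rows, and the 43 at the bottom have 0 counts in every small pool.

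The 41 members with counts in all 6 pools held the most counts as a set, with a median of 142 in the large and 22 in the small group. Single members of this set had as few as 3 counts in the small group. The mean of the 41 ran from 1.16 to 193 CPM in the large pools (median 4.77) and had a median of 1.47 CPM in the small pools. Pooling the counts of each group, the ratio of large to small ran from 1.82 to 35.9, with a median of 3.3. In every pooled ratio given here the deepest pool of each group, large pool 3 and small pool 1, weighs most. A pooled ratio can therefore differ from the ratio of the group means. On the log2(CPM + 0.5) scale their median difference between the large and the small pool of the same number was 1.33 for number 1, 1.19 for number 2 and 1.04 for number 3. These sequences varied by a median of 22.5% (coefficient of variation over 3 pools) within the large group and 30.8% within the small group. The medians were 42.5% and 44.9% over the 18500 coding sequences that passed the limits on level and had counts in all pools. A gap between the groups was required, which favours rows of small spread, but it does not bound the large pools from above. Over all 142 members, those with 0 counts included, the median within the large group was 56.6%.

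HSB_liver_CDS_3407 had the widest gap when 0.5 CPM was added to both the lowest large and the highest small pool. It was at 31.7, 16.1 and 5.81 CPM in large pools 1 to 3 and at 0.225, 0.411 and 0.573 CPM in small pools 1 to 3. The lowest large pool was thus 10.1 times the highest small pool, although the large pools spread over a wide range. The small values rest on 2, 1 and 2 counts against 360 counts in the large group, which gives a pooled ratio of 35.9 (counting interval 15.2 to 111).

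HSB_liver_CDS_25458 was steadier among the large pools, at 7.70, 7.53 and 3.31 CPM, against 0.337, 0.411 and 0.286 CPM in the small pools. Large pool 3 was the lowest of its group and still 8.06 times the highest small pool. The small pools held 3, 1 and 1 counts, and the pooled ratio was 14.2 (counting interval 5.92 to 44.3).

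The member with the most counts was HSB_liver_CDS_23762, at 87.8, 414 and 76.8 CPM in large pools 1 to 3 and 34.5, 27.1 and 49.0 CPM in small pools 1 to 3. Large pool 2 stood far above every other pool, and the gap between the lowest large and the highest small pool was 1.57 times. The group means were 193 ± 191 CPM (SD, n = 3) and 36.9 ± 11.1 CPM (SD, n = 3).

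HSB_liver_CDS_27641 shared the high value of large pool 2. Its CPM were 41.3, 259 and 43.2 in large pools 1 to 3 and 3.04, 23.4 and 19.5 in small pools 1 to 3. Large pools 1 and 3 were alike, while small pool 1 was well below the other small pools. The large group averaged 114 ± 125 CPM (SD, n = 3), and the small group averaged 15.3 ± 10.8 CPM (SD, n = 3).

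HSB_liver_CDS_7138 had a narrower spread than either, at 60.3, 44.5 and 40.6 CPM in the large and 25.3, 23.0 and 19.5 CPM in the small pools. In both groups number 1 was the highest and number 3 the lowest. The means were 48.5 ± 10.4 CPM (SD, n = 3) and 22.6 ± 2.94 CPM (SD, n = 3), and the counting interval of the pooled ratio of 1.90 was 1.69 to 2.14.

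HSB_liver_CDS_8807 was carried by large pool 1, with 98.0 CPM there, 14.2 and 16.1 CPM in large pools 2 and 3, and 8.43, 3.70 and 3.15 CPM in small pools 1 to 3. Number 1 was the highest in both groups. The small pool of number 1 stayed below all large pools, at a gap of 1.69 times.

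**Figure D2:**
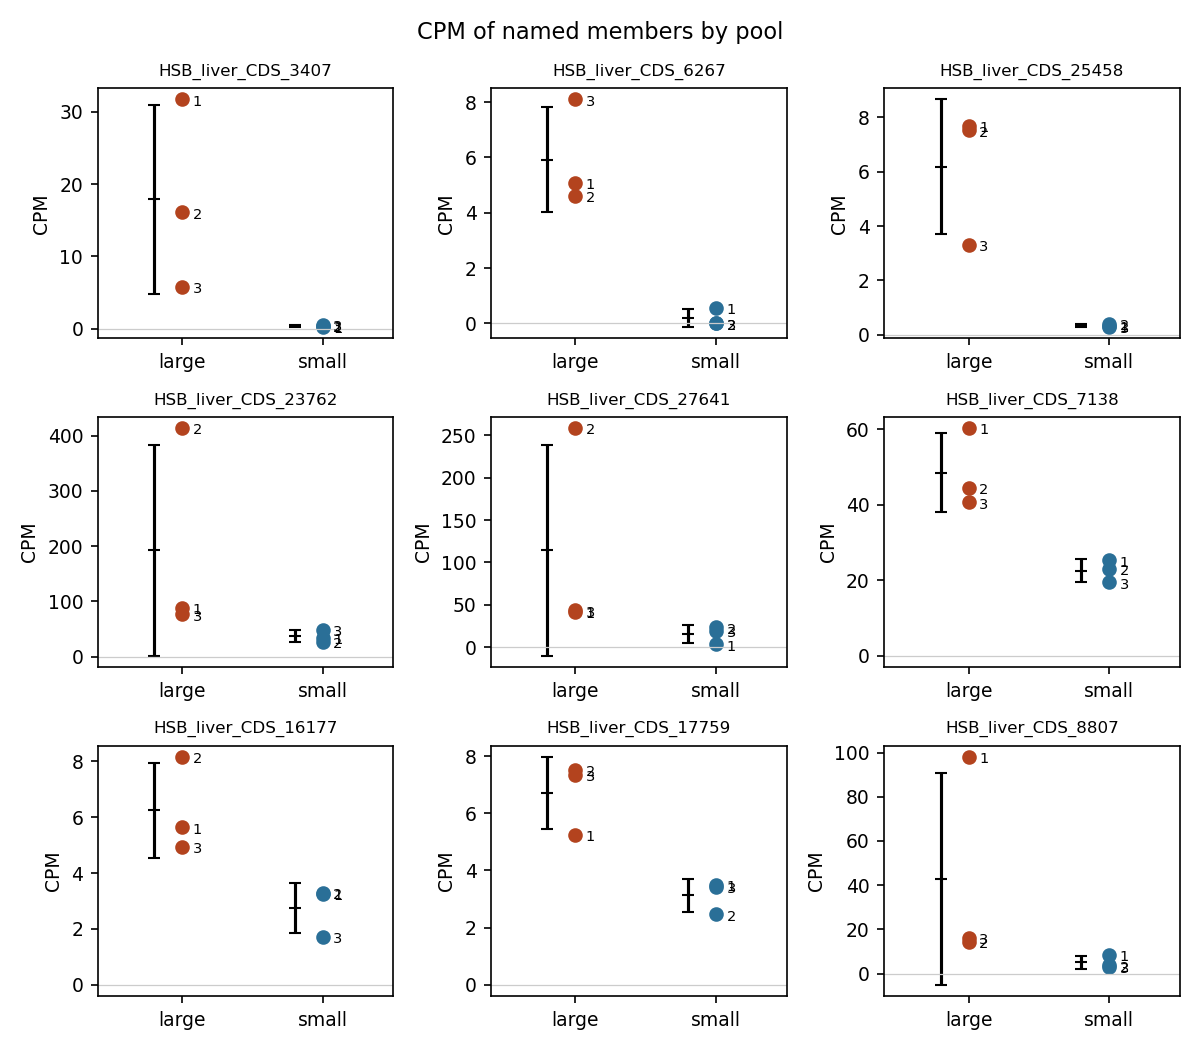
CPM of the 9 members named by rule, 1 panel each, with large pools in red and small pools in blue, pool numbers beside the points, and a bar for mean and SD (n = 3). HSB_liver_CDS_23762 and HSB_liver_CDS_27641 are highest in large pool 2 (414 and 259 CPM) and HSB_liver_CDS_8807 in large pool 1 (98.0 CPM).

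The 58 members with counts in some small pools rested on few counts in the small group, with a median of 4 over its 3 pools together (range 1 to 56). Their large-pool mean had a median of 1.79 CPM (range 1.02 to 14.3), and the pooled ratio had a median of 6.94. HSB_liver_CDS_6267, the second by that measure of the gap, had 5.07, 4.60 and 8.10 CPM in the large pools against 0.562, 0 and 0 CPM in the small pools. Its large pools lay close together, and its pooled ratio was 20.7 (counting interval 8.74 to 64.5). The highest ratio of this set, 59.8 for HSB_liver_CDS_3178, has 1 count in the small group behind it and a counting interval of 10.5 to 2381. This sequence, and those first named from here on other than the ones nearest to the limit of the rule, were picked after their values were seen.

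The 43 members without any count in the small pools had 15 to 185 counts in the large pools together (median 30). A count of 0 allows 3 counts over the whole small group (0.202 CPM), and their pooled level was 2.49 to 30.7 times that. This ratio takes the large counts as exact. The counting interval of the pooled ratio covers both groups and started lower, at 1.79 for the member with the ratio of 2.49. The ratio of 30.7 belonged to HSB_liver_CDS_9573 (counting interval from 24.7), with 143, 16 and 26 counts in large pools 1 to 3. HSB_liver_CDS_33791 had 111, 7 and 28 counts, which is 20.8, 1.46 and 1.43 CPM, and a ratio of 24.3 (counting interval from 19.5). HSB_liver_CDS_17405 had 6, 5 and 136 counts, so that large pool 3 held most of it at 6.93 CPM. In each of the 3, a single large pool stood well above the other two.

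Among these 43, 23 had 0 counts in 1 or more large pools as well, since the rule counts 0 as at least 1.5 times 0. They were not higher in every large pool, and the description "higher in every large pool" holds for 119 of the 142. The 0 fell in large pool 2 for 14 of the 23, in large pool 3 for 9 and in large pool 1 for 6, and 6 of them had counts in 1 large pool only. That pool was large pool 1 for 5 and large pool 2 for 1. Among the 23, HSB_liver_CDS_9739 had 83 counts in large pool 1, 0 in large pool 2 and 3 in large pool 3.

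Counts limit how firmly a member is placed. In 90 of the 142 the lowest large pool held fewer than 10 counts. The counting interval of the ratio of the lowest large to the highest small pool lay above 1 for 29 members, and that of the pooled ratio for 141. The rule chose members by these same values, which favours both counts and nearly sets the 141, so nothing is read from them. Neither interval covers the spread between pools. If each small pool had held 1 more count of a member, 55 of the 142 would still have met the rule. With every library thinned to the total of small pool 2, a median of 230 coding sequences met the rule (213 to 257 in 20 draws), and a median of 96.5 of the 142 members were among them (85 to 106).

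Nearest inside the limit were HSB_liver_CDS_16177, with a gap of 1.504 times, and HSB_liver_CDS_17759, with 1.508. The former had 5.63, 8.15 and 4.94 CPM in the large and 3.26, 3.29 and 1.72 CPM in the small pools. The latter had 5.26, 7.53 and 7.34 CPM in the large and 3.49, 2.46 and 3.44 CPM in the small pools. Nearest outside were HSB_liver_CDS_15047, at 1.498, and HSB_liver_CDS_37, at 1.495. Of these, HSB_liver_CDS_15047 had 3.0, 5.23 and 4.89 CPM in the large and 0.225, 1.64 and 2.00 CPM in the small pools. HSB_liver_CDS_37 had 8.45, 3.14 and 2.14 CPM in the large and 0.787, 0.411 and 1.43 CPM in the small pools. Among the 99 members with a count in the small group, 56 had a gap under 2 times, 28 had 2 to 3 times and 15 had 3 times or more.

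**Figure D3:**
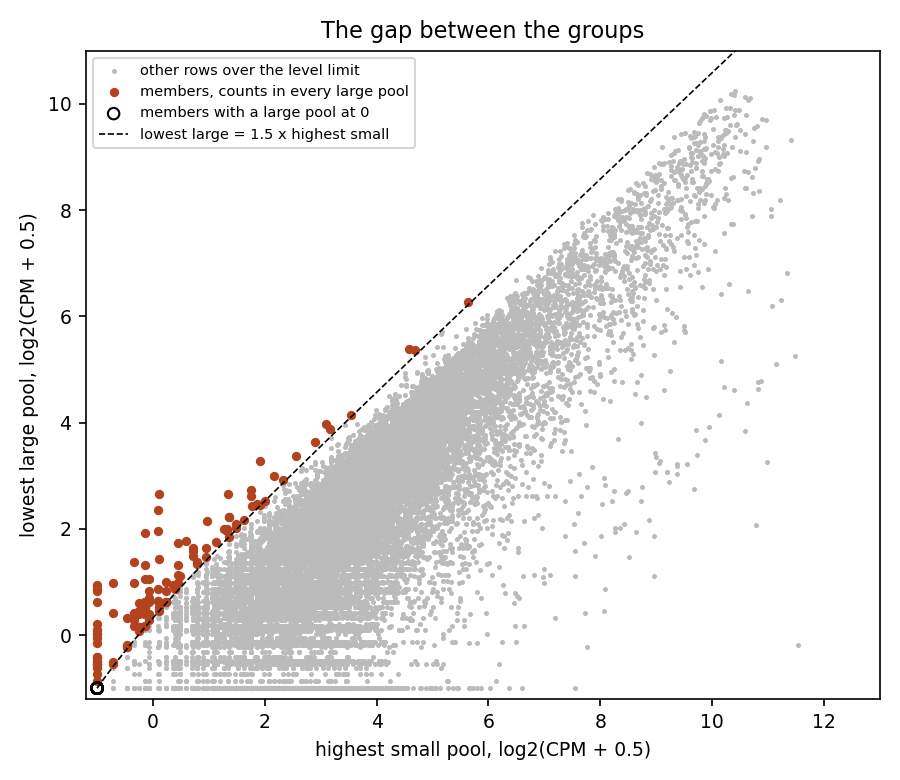
Lowest large pool against highest small pool, both as log2(CPM + 0.5), for the 21355 coding sequences that passed the limits on level. Members (red) lie on or above the dashed line at 1.5 times, most of them at the lower left, and the 23 members with a large pool at 0 share the ringed point at 0 in both.

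The same rule with large and small exchanged found 161 coding sequences, so that the large-fish set was not the larger one. In 32 of the 161 a small pool was itself at 0, as a large pool was in 23 of the 142. With libraries thinned as above, a median of 297 met the exchanged rule (259 to 319 in 20 draws), beside 230 for large fish. The unthinned rule for large fish took in 0.665% of the coding sequences over the level limit in large fish. The exchanged rule took in 0.743% of the 21679 over that limit in small fish. In both directions the share fell with CPM. Of coding sequences at 1 to 2 CPM in the higher group, 1.94% met the rule for large fish and 1.97% the exchanged rule. At 20 CPM and over, 0.105% (5 coding sequences) met the rule for large fish and 0.324% (16) the exchanged rule. No test was run on these shares, which the rule itself sets.

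**Figure D4:**
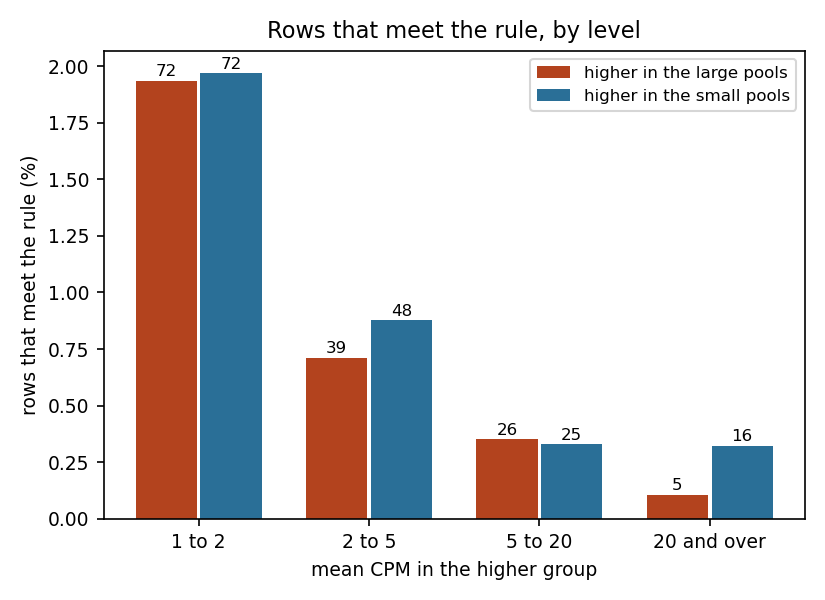
Percentage of coding sequences that met the rule (red, higher in the large pools) or the rule with the groups exchanged (blue), by mean CPM in the higher group, with the number of coding sequences on each bar. The shares are 1.94% and 1.97% at 1 to 2 CPM, and 0.105% and 0.324% at 20 CPM and over.

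In the fit over all coding sequences, edgeR's quasi-likelihood test called 0 members at an adjusted p of 0.05, beside 0.0% of the 18135 coding sequences tested. Of the 142 members, 46 had enough counts to enter that fit, 30 of them from the set with counts in all pools and 16 from the set with counts in some small pools. Their log2 fold changes (large minus small) ran from 0.97 to 5.55 with a median of 2.29, against -0.01 over all coding sequences tested. At an unadjusted p under 0.05 there were 35 of these 46 and 194 coding sequences in all (1.07%). With the replicate number as a block, edgeR again called 0 members, beside 0.0% of all. In that fit 37 members and 907 coding sequences (5.0%) lay under an unadjusted 0.05. Limma voom called 0, beside 0.0% of all, and 28 members and 457 coding sequences (2.52%) lay under an unadjusted 0.05. Since the rule used this contrast, nothing is read from these counts or from those of DESeq2 below, nor from the p-values of single members.

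DESeq2 made some calls. It called 1 of 141 members higher in large fish, HSB_liver_CDS_3407, beside 0.00268% of the 37332 coding sequences with a p-value. With the replicate number as a block it called 7 of 142, beside 0.0667% of 37503. It gave an adjusted p for 45 members and for 17871 coding sequences in all in that fit, the others being filtered for low counts. The 7 were 28.0% of the 25 coding sequences that DESeq2 with the block called higher in large fish, and 4.93% of the members. The rule used the same contrast, so these shares and the p-values below describe the members and support nothing.

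Of the 7, HSB_liver_CDS_27641 had a log2 fold change of 2.87 (SE 0.46, DESeq2 adjusted p = 1.8e-06 with the block and 1.0 without). The edgeR value was 3.03 (SE 1.07, adjusted p = 0.9999 without and 0.934 with the block), and 1.51 without large pool 2. For HSB_liver_CDS_8807 DESeq2 gave 2.77 (SE 0.48, adjusted p = 2.04e-05 with the block and 0.55 without), and edgeR 2.99 (SE 0.85, adjusted p = 0.9999 without and 0.934 with the block), or 1.66 without large pool 1. Each was highest in the same number in both groups, HSB_liver_CDS_27641 in number 2 and HSB_liver_CDS_8807 in number 1.

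HSB_liver_CDS_3407 was called in both DESeq2 fits, at 5.46 with the block (SE 0.97, adjusted p = 4.84e-05) and 5.62 without (SE 1.0, adjusted p = 0.000749). HSB_liver_CDS_23762 was called with the block at 1.95 (SE 0.49, adjusted p = 0.0292). Its edgeR value was 2.49, and 1.17 without large pool 2. The other 3 calls were HSB_liver_CDS_33791 (6.44, adjusted p = 0.00531), HSB_liver_CDS_3178 (5.85, adjusted p = 0.0257) and HSB_liver_CDS_30500 (4.36, adjusted p = 0.026). HSB_liver_CDS_30500 had 32.1, 7.73 and 2.60 CPM in large and 0.562, 0 and 1.15 CPM in the small pools. In all 3 the highest value was in large pool 1. HSB_liver_CDS_25458 and HSB_liver_CDS_7138 were not called, at DESeq2 adjusted p-values of 0.0531 and 0.0816 with the block.

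Number 1 against numbers 2 and 3 is not the contrast of the rule, but the rule acts on the same values. A gap between the groups leaves little room for wide differences between numbers that both groups share. The rule thus favours a low share of members called. Equal numbers were paired because they correlated in these same data, which favours a high share called over all coding sequences. With growth in the model, edgeR called 1 of 46 members, HSB_liver_CDS_8807, beside 25.4% of all 18135 coding sequences. That member was higher in number 1, with a log2 fold change of 2.03 (SE 0.31, adjusted p = 0.014). HSB_liver_CDS_27641 was the member with the smallest p in the other direction, at -2.17 (SE 0.60, adjusted p = 0.0565). DESeq2 called 2 of 142 members, these same sequences, beside 11.5% of 37503. It gave an adjusted p for only 67 members and 20780 coding sequences, and the others could not be called. Without any filter on low counts edgeR called 11 of 142 members, all of them higher in number 1, beside 17.3% of 37503 coding sequences. Over all coding sequences 3729 of these calls were higher and 2753 lower in number 1. That fit takes in the 43 members at 0 in all small pools, for which only the large pools can differ between numbers. Leaving out 1 pool changed both counts and the number of members tested. Without large pool 1, edgeR called 0 of 44 members, beside 1191 coding sequences (6.42%). The calls were 2 of 50 members beside 4067 (20.2%) without large pool 2, and 1 of 49 beside 1483 (7.77%) without large pool 3. Without small pool 1 they were 1 of 57 members beside 668 (3.61%), without small pool 2 they were 3 of 64 beside 3500 (17.5%), and without small pool 3 they were 1 of 64 beside 1476 (7.43%).

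Of the 41 members with counts in all pools, 22 differed between number 1 and the others in the same direction in both groups of fish. The difference between number 1 and the mean of numbers 2 and 3, in log2(CPM + 0.5), correlated between the large and the small pools at r = 0.75 over the 18500 coding sequences with counts in all pools. Over the 41 members with counts in all pools r was 0.24, and 7 were higher and 15 lower in number 1 in both groups, while 19 went opposite ways. Directions, the 22 above included, were not counted over the 18500, so they are not shown to be particular to the members. Coding sequences share their libraries and are not replicates, and the rule acts on the same values, so these are descriptions. Equal numbers were used as pairs because of correlations in these same data, so the r over all coding sequences partly restates that choice. The 41 had a median of 22 counts in the small group, and the 18500 were not matched to them in level. The part of counting error in the lower r was not tested.

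**Figure D5:**
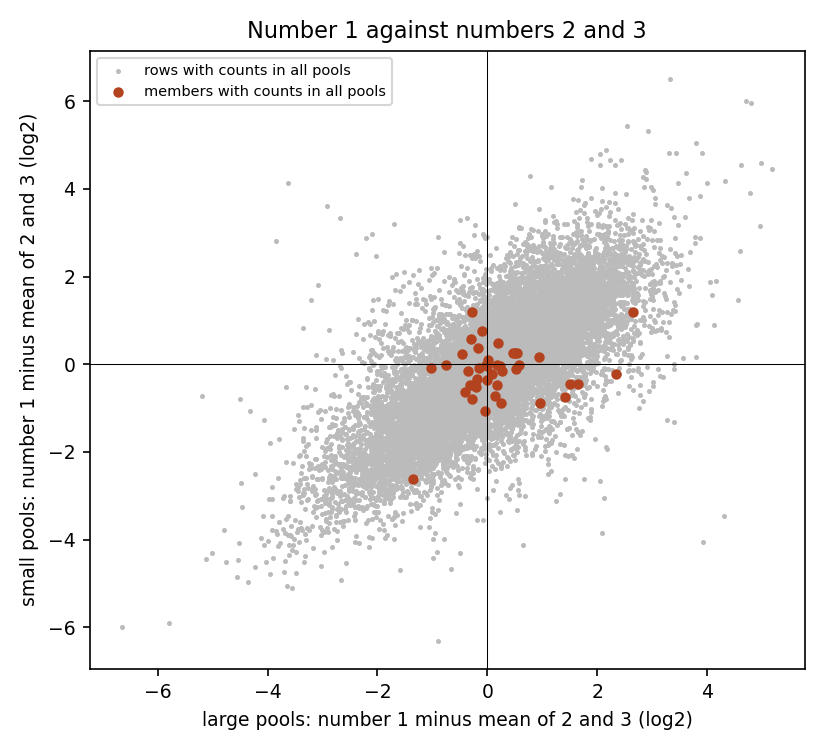
Difference between number 1 and the mean of numbers 2 and 3 on the log2(CPM + 0.5) scale, in the large (horizontal) and small (vertical) pools. Grey points are 18500 coding sequences with counts in all pools (r = 0.75), and red points are the 41 members with counts in all pools (r = 0.24), which lie near the centre.

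The single pools did not contribute evenly. Large pool 1 was the highest large pool for 70 members, large pool 2 for 47 and large pool 3, the deepest, for 25. Large pool 3 was the lowest of its group for 71, large pool 2 for 46 and large pool 1 for 31, with 6 members at 0 in a pair of large pools counted under both. Among the 99 members with a count in the small group, small pool 1, the deepest small pool, was highest for 44, small pool 2 for 26 and small pool 3 for 29. The deepest pool was thus highest least often in the large group and most often in the small group. The part of depth in these counts was not tested. They were not taken over all coding sequences, so they are not shown to be particular to the members. Members at 0 counts numbered 53, 84 and 76 in small pools 1 to 3, in which 1 count was worth 0.112, 0.411 and 0.286 CPM.

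Among the members were 4 pairs with consecutive running numbers, 8 members in all (5.63%), against 4 pairs and 8 members (4.97%) under the exchanged rule. HSB_liver_CDS_25458 was joined by HSB_liver_CDS_25459, at 1.31, 2.09 and 0.815 CPM in the large pools, and the small pools held 3, 1 and 1 counts of each. HSB_liver_CDS_9738 and HSB_liver_CDS_9739 were both highest in large pool 1 (9.01 and 15.6 CPM) and at 0 in large pool 2 and all small pools. HSB_liver_CDS_27640 did not follow its neighbour: it was highest in large pool 1 at 4.69 CPM and stood at 0.418 CPM in large pool 2, where HSB_liver_CDS_27641 was highest. The remaining pair was HSB_liver_CDS_13405 and HSB_liver_CDS_13406. Whether such neighbours are copies or pieces of 1 gene is not given in the table, and estimated counts of near-identical sequences, parental copies included, cannot be assumed to be separate.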

How the data were processed

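RNA of liver from large and small hybrid striped bass was measured in 6 pooled libraries. The authors deposited 1 table of estimated counts (expected counts, all whole numbers) per coding sequence, with no gene name, length or sequence. DESeq2, eXpress 1.5.1, Bowtie2 2.3.1 and Trim Galore 0.4.3 are named, without roles or settings, per the submitters' processing notes.

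CPM were counts divided by the library total, without scaling factors. The members and lists were chosen with earlier results of these data known. Tests used edgeR 4.0.16 in R 4.3.3 (quasi-likelihood, robust, TMM scaling, filterByExpr), with Benjamini-Hochberg adjustment over all rows tested and a threshold of 0.05. Checks used limma 3.58.1 with voom, DESeq2 1.42.0, different filters, scaling and limits of the rule, a replicate block, and leaving out each library. The fits were also run on simulated counts with known changes. Those counts had a single fixed spread setting for every row, and no difference between numbers where large against small was simulated. They therefore do not show how the fits behave on the measured data. Intervals are exact 95% intervals and cover counting error only. The SE of an edgeR value is its log2 fold change divided by the square root of the F statistic of its test. It is thus not the same measure as the SE that DESeq2 reports.

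Deviations from the group means correlated at 0.72, 0.19 and 0.59 between large and small libraries of numbers 1, 2 and 3. Each is over 0.1, and equal numbers were taken as pairs in the fits with a block and in those between numbers. However, 2 crossed pairs were over 0.1 too (0.20 for large 3 and small 2, 0.11 for large 2 and small 3). Small 2 thus correlated no less with large 3 than with large 2, so these values do not settle the pair of number 2. The numbers come from the sample descriptions, but their meaning is not in the labels, so the use of equal numbers as pairs rests on the correlations. Calls and correlations between numbers thus partly restate the values that led to this use. The titles number the pools in a single run over both groups, while the sample descriptions repeat the same numbers in each group. The main fit of large against small has no block and does not use the pairs.

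The members named were those with the widest gap (lowest large against highest small pool, 0.5 CPM added to each), the most counts, the values nearest to the limit, and the smallest p in DESeq2 with the block or between numbers. Marker and pathway lists could not be used (0 lists matched).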

Additional observations from a re-analysis of the deposited data

How the results depend on the processing

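The rule found 154 coding sequences with TMM scaling and 158 with DESeq2 size factors, 134 and 138 of them members. It found 86 at a least ratio of 2 and 215 at a lower one, 31 at a mean of 5 CPM or more and 3051 with no minimum. Leaving out the most abundant rows made no difference (142). Thinning to equal totals gave 230. Of the settings chosen after seeing the data, 119 members had counts in every large pool, 52 had 10 or more there, 55 stayed with 1 more count in each small pool, and 29 had a counting interval above 1, while with no minimum 392 coding sequences had counts in every large pool. Leaving out 1 library, which leaves fewer pools to separate, gave 254 (without large pool 2) to 889 (without small pool 1).

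Between large and small fish, calls over all coding sequences and among members were 0 in edgeR with the replicate block, other scaling, no filter, voom and each fit without 1 library. DESeq2 called 1 in all (0.00268% of 37332) and 1 member. With the replicate block it called 51 in all (0.136% of 37503), 25 higher and 26 lower in large fish. Of the members it called 7, all higher. Why the tools differ was not tested. Between number 1 and numbers 2 and 3, leaving out 1 library gave 668 to 4067 calls, with 0 to 3 members. DESeq2 called 2 of 142 members, beside 11.5% of all, and gave an adjusted p for 67 members. Without a filter 11 of 142 members were called, beside 17.3% of all. The 11 coding sequences chosen by rule had positive log2 fold changes in each setting that tested them, which their choice favours. That of HSB_liver_CDS_6267 was 4.44, and 8.42 without small pool 1, when its small values are all 0. That of HSB_liver_CDS_15047 was 1.94, and 3.08 in voom. Depth limits what is seen at low level, as 0 counts allow 1.23 CPM in the shallowest pool.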
